A study of Mus musculus with 18 samples.

Results

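Cyclins are the regulatory partners of cyclin-dependent kinases, and their transcripts mark the stage at which dividing cells are found. The 10 genes described here are the A-type (Ccna1, Ccna2), B-type (Ccnb1, Ccnb2, Ccnb3), D-type (Ccnd1, Ccnd2, Ccnd3) and E-type (Ccne1, Ccne2) cyclins of mitosis and meiosis. They were taken by symbol from a deposited table of 20985 genes, in which each symbol had 1 row, and all 10 were among the 14164 genes with at least 1 FPKM in at least 3 libraries. Levels are in FPKM, fragments scaled by transcript length and library depth.

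RNA was sequenced from whole testis of mice aged 10 weeks, of the outbred ICR strain. There were 3 libraries in each of 6 groups. The STZ group had received streptozotocin, a toxin of pancreatic beta cells that is used to model diabetes. The STZ+AOS group had received streptozotocin and alginate oligosaccharide, a short sugar chain from brown algae, at 10 mg/kg. The STZ+AOS-FMT and STZ+control-FMT groups had received streptozotocin and a faecal microbiota transplant, named in the labels for AOS at 10 mg/kg or for control. The AOS group had received alginate oligosaccharide at 10 mg/kg alone, and the control group is given by that name only. The question was how streptozotocin and the other treatments affected the testis. Nothing in the labels ties a library to an animal, so the spread between libraries, and the p-values built on it, may be technical in part.

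In spermatogenesis the cyclins divide the work between mitosis and meiosis. Ccna1 is largely restricted to the germ line, where it is made in late spermatocytes and is needed for entry into the first meiotic division in male mice. Ccna2, its relative in somatic and spermatogonial cells, serves DNA replication and entry into mitosis. B-type cyclins with Cdk1 drive the division phase itself, D-type cyclins with Cdk4 or Cdk6 open the cycle in response to growth signals, and E-type cyclins with Cdk2 start DNA replication.

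Start regions are shown for Ccna1 and Ccnb2, the cyclin genes that were lower in STZ than in control testis, and for Ccnb1, a B-type gene whose level did not pass the test. Each stretch runs 5′ to 3′ from 250 bases before to 50 bases after the annotated start (RefSeq, GRCm38.p6). All 3 genes lie on the minus strand, and the stretches span chr3:55055006-55055305 for Ccna1, chr9:70421505-70421804 for Ccnb2 and chr13:100786437-100786736 for Ccnb1. GENCODE M21 places the 5′ end of Ccna1 at chr3:55055501, so the whole Ccna1 stretch lies inside the gene as annotated there. Capitals mark matches on either strand to CCAAT, the core of the NF-Y box, and to TTTGAA, the core of the cell cycle homology region (CHR) of genes active in G2 and M phase.
Ccna1: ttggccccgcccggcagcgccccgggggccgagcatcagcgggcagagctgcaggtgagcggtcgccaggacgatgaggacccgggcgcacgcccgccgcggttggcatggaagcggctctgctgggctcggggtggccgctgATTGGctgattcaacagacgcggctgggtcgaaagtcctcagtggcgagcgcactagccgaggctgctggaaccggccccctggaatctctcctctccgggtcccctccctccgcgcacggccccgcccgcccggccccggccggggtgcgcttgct
Ccnb2: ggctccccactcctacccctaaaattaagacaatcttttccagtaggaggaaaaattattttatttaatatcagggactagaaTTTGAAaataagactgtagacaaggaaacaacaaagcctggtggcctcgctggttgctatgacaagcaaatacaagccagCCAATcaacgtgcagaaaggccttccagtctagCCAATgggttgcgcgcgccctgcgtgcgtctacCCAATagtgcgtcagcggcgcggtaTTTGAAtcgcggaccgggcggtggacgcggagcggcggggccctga
Ccnb1: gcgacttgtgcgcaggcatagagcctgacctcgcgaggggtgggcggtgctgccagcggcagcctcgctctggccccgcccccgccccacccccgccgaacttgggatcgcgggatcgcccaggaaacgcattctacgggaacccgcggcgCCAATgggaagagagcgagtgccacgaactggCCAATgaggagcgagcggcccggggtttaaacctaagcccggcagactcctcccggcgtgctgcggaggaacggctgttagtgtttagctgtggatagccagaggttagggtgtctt
The Ccnb2 stretch held 3 CCAAT and 2 TTTGAA matches. The Ccnb1 stretch held 2 CCAAT matches and no TTTGAA, and the Ccna1 stretch held 1 CCAAT match, on the minus strand, and no TTTGAA. Of 32851 mouse start regions of this length, 37.4% held CCAAT and 17.9% held TTTGAA. The MYB core AACNG matched 3 times in Ccna1, 3 times in Ccnb1 and not in Ccnb2, and 80.3% of all start regions held it. The E2F form TTTNNCGC was in 5.17% of all start regions and in none of the 3 shown, while the GC box GGGCGG was in 35.7% of all and matched 3 times in Ccna1, 1 time in Ccnb2 and 3 times in Ccnb1. All were searched on both strands, and in these stretches 0 matches of different motifs overlapped. The RefSeq table used here held start regions for 6 of the 10 genes.

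The 10 genes fell into a high, an intermediate and a low class. Ccna1, Ccnb2 and Ccnd3 ran from 66.6 FPKM in the lowest to 138.2 FPKM in the highest library, and together they made up 81.5 ± 1.67% of the summed level of the 10 genes in STZ and 85.2 ± 0.69% in control libraries (SD, n = 3 each). Ccnb1 and Ccne2 ran between 10.4 and 33.2 FPKM. Ccna2, Ccnb3, Ccnd1, Ccnd2 and Ccne1 stayed between 0.70 and 5.62 FPKM in every library. An F test over the 6 groups called 7 of the 10 genes at an adjusted p under 0.05, against 52.3% of all genes tested, and the 3 not called were Ccnb1, Ccne1 and Ccne2. Without STZ replicate 3 the number was 4.

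**Figure D1:**
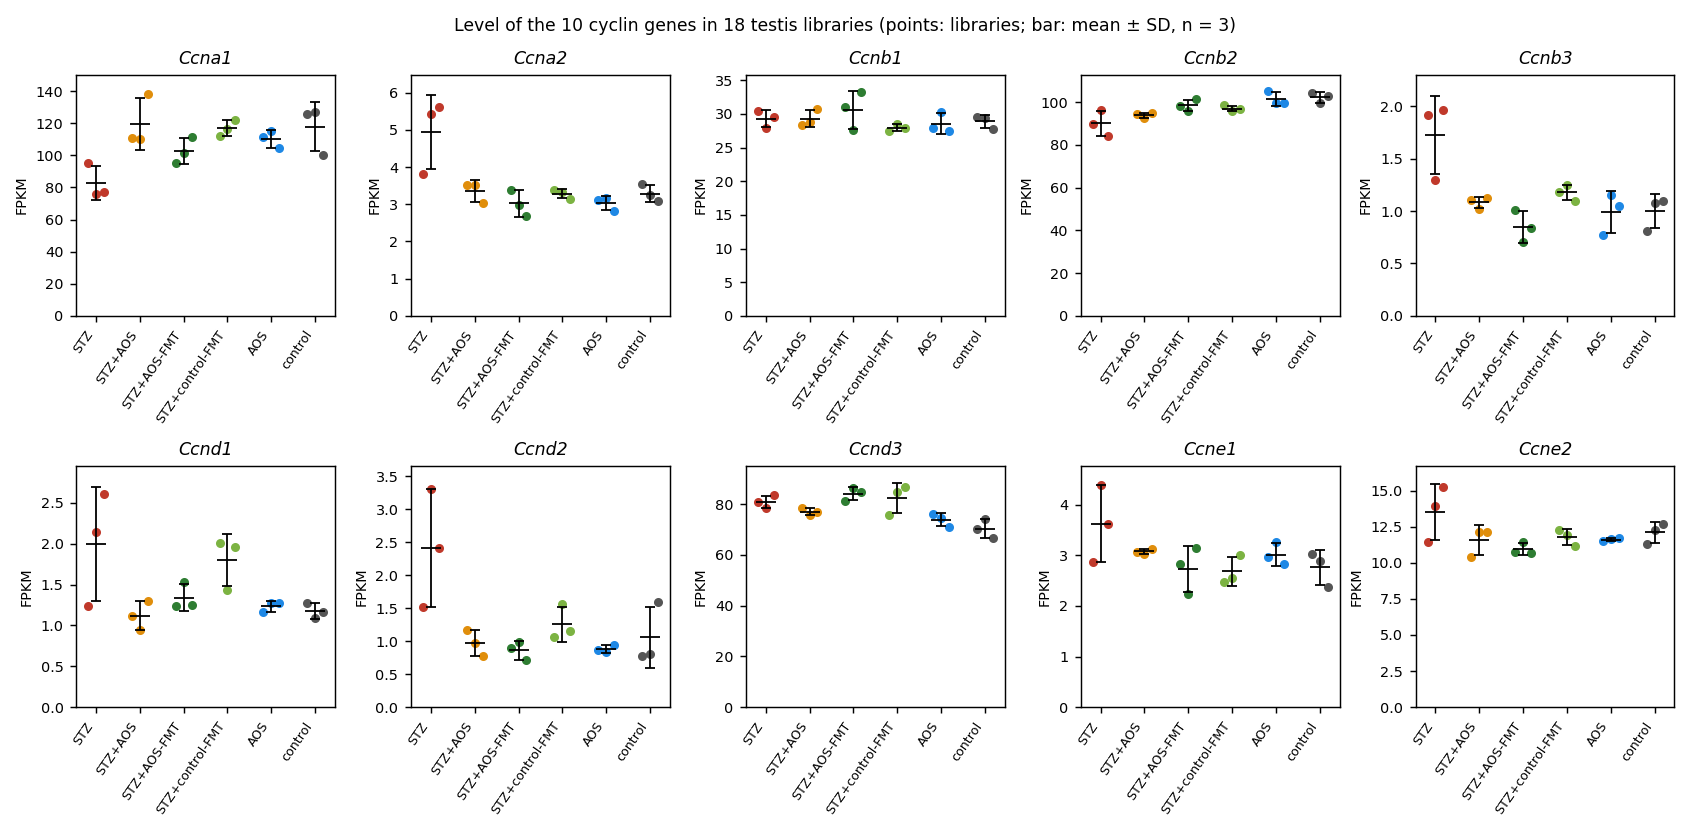
Level in FPKM (vertical axes, from 0) of each cyclin gene in each of the 18 libraries (points), with the mean and SD of the 3 libraries of each group (bars). The STZ libraries of Ccna1, at 76.2 to 95.2 FPKM, lie below the other 15, and those of Ccna2, at 3.81 to 5.62 FPKM, lie above the other 15.

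Several facts of the whole series bear on these values. STZ and control differed in 7823 of 14164 genes, and the median log2 fold change of all genes was 0.17 as deposited. That median became -0.06 after quantile normalization and -0.17 after centring each library on its median. Calls higher and lower in STZ numbered 6118 and 1705 as deposited, 3156 and 4093 after quantile normalization, and 2678 and 6119 after centring. STZ replicate 1 stood apart from the other STZ libraries in the summed level of 8 Leydig cell markers. It had 1799 FPKM, against 12007 and 12812 FPKM in STZ replicates 2 and 3 and 3523 to 4045 FPKM in control libraries.

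On the deposited scale, streptozotocin was followed by a lower level of the meiotic cyclin Ccna1 and a higher level of its mitotic relative Ccna2. The fall of Ccna1 was also called after quantile normalization and after median centring, whereas the rise of Ccna2 was called after neither. Of the 10 cyclin genes, 6 were called higher in STZ than in control libraries and 2 lower, where the shares among all genes tested were 43.2% higher and 12.0% lower. With 2 or 6 of 10 genes, neither count stands apart from those shares. All 3 STZ libraries lay above all 3 control libraries for 3 genes (42.1% of all genes tested) and below them for 2 genes (11.5%). The median log2 fold change of the 10 genes was 0.24, beside 0.17 for all genes.

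Ccna1 (chr3:55045469-55055501, minus strand, GRCm38) stood at 95.2, 76.2 and 77.3 FPKM in the 3 STZ libraries, against 126.0, 127.2 and 100.3 FPKM in control libraries. The groups did not overlap, although STZ replicate 1 and control replicate 3 came close. Means were 82.9 ± 10.7 FPKM in STZ libraries and 117.8 ± 15.2 FPKM in control libraries (SD, n = 3 each), and Ccna1 fell by 0.50 on the log2 scale of FPKM + 1 (SE 0.11, limma adjusted p = 0.0011). The fall was called under each of the 27 alternatives tried, at -0.48 after quantile normalization and -0.84 after median centring, and it was -0.60 without STZ replicate 1.

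In the remaining groups Ccna1 stood near or above 100 FPKM. The libraries had 110.5, 110.2 and 138.2 FPKM in STZ+AOS, and 95.5, 101.3 and 111.2 FPKM in STZ+AOS-FMT. They had 112.0, 116.5 and 122.0 FPKM in STZ+control-FMT, and 111.3, 115.2 and 104.3 FPKM in AOS. All 15 libraries outside the STZ group were above the highest STZ library, by the smallest margin in STZ+AOS-FMT replicate 1. By group mean the order was STZ+AOS, control, STZ+control-FMT, AOS, STZ+AOS-FMT and STZ, and the libraries of neighbouring groups in that order overlapped except between STZ+AOS-FMT and STZ.

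Ccna2 (chr3:36564865-36572150, minus strand) moved the other way. It had 3.81, 5.42 and 5.62 FPKM in STZ libraries, against 3.54, 3.24 and 3.08 FPKM in control libraries. The other 12 libraries ranged from 2.68 to 3.53 FPKM, so each STZ library was above every library of the other groups. Ccna2 averaged 4.95 ± 0.99 FPKM in STZ libraries and 3.29 ± 0.23 FPKM in control libraries, and it rose by 0.46 (SE 0.11, limma adjusted p = 0.00216) on the scale as deposited. The rise was 0.05 after quantile normalization and 0.12 after median centring, and neither passed the test. It was 0.61 without STZ replicate 1.

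The ratio of Ccna1 to Ccna2 within a library does not change with a scaling factor common to all genes of that library. It was 25.0, 14.1 and 13.8 in STZ libraries, against 35.6, 39.3 and 32.6 in control libraries. In STZ+AOS it was 31.3, 31.4 and 45.8, in STZ+AOS-FMT 28.2, 33.9 and 41.5, in STZ+control-FMT 33.1, 35.0 and 38.7, and in AOS 35.8, 36.3 and 37.1. All 15 libraries outside the STZ group lay above the highest STZ library.

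On the log2 scale, with 0.1 FPKM added, the ratio averaged 4.05 ± 0.48 in STZ and 5.12 ± 0.14 in control libraries (SD, n = 3 each), a difference of -1.07. An exact two-sided permutation test gave p = 0.1, the smallest that 3 against 3 libraries allow, so this design cannot reach 0.05, and the p adjusted over the 81 ratio tests was 0.225. Of the 9 ratios of Ccna1 to another cyclin gene, 7 lay wholly below control in the STZ libraries, and those to Ccnb2 (-0.32) and Ccne2 (-0.66) overlapped. All 9 ratios share Ccna1, whose own STZ libraries lay below control, and 42.1% of all genes tested lay wholly above control. The count is therefore no result on the other cyclin genes. Ccna1 made up 26.6 ± 2.85% of the summed level of the 10 genes in STZ and 34.5 ± 2.70% in control libraries.

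**Figure D2:**
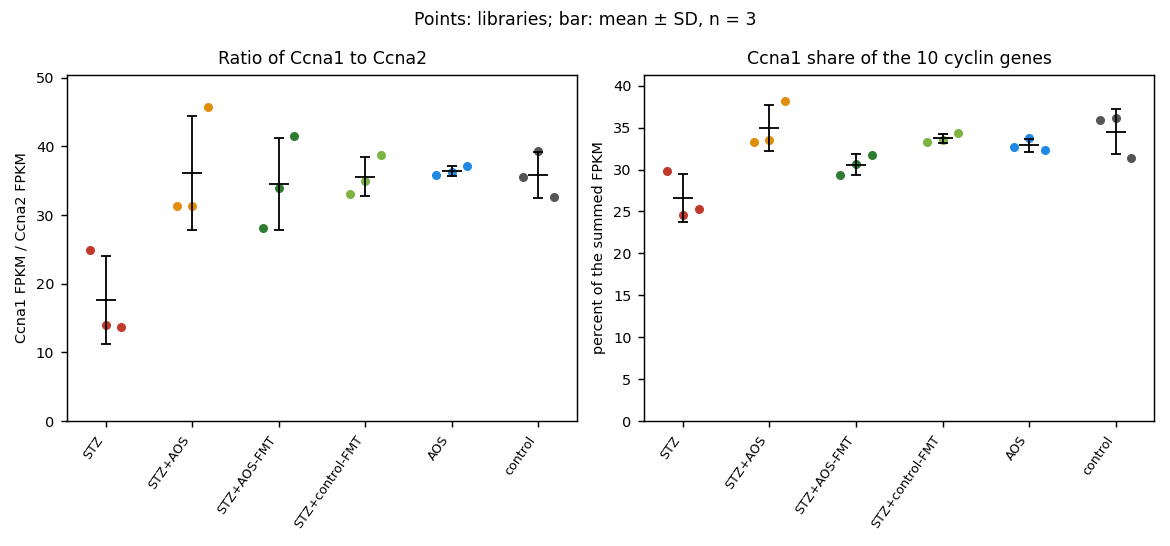
Left, the level of Ccna1 divided by that of Ccna2 in each library; right, Ccna1 as a percentage of the summed FPKM of the 10 cyclin genes (points are libraries, bars are the mean and SD of 3). The STZ libraries, with ratios of 13.8 to 25.0, lie below the other 15 libraries, at 28.2 to 45.8.

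Markers of the cells known to make these A-type cyclins differed too. Of 10 late spermatocyte markers (1 of which, Mybl1, is also in the RB and E2F list), 0 rose and 6 fell in STZ, with a median log2 fold change of -0.20 and a summed level of 4740 to 5484 FPKM in STZ against 5896 to 6005 FPKM in control libraries. Taken relative to the mean log2 level of these markers, Ccna1 was at -1.30 ± 0.10 in STZ and -1.02 ± 0.18 in control libraries, and the groups overlapped. All 10 round spermatid markers fell as well, with summed levels of 1526 to 1855 FPKM in STZ libraries and 1967 to 2009 FPKM in control libraries. So did all 10 elongating spermatid markers, with a median log2 fold change of -0.55. Among all genes tested, 12.0% were called lower and 43.2% higher.

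Of 10 spermatogonial markers tested, 7 rose, among them Uchl1, Stra8, Dmrt1 and Sall4 (log2 fold changes 1.04, 1.25, 0.68 and 0.62), and 1 fell. Dmrtb1 fell by 0.35, and as the most abundant of the list, at 241.2 FPKM in STZ libraries and 308.7 FPKM in control libraries, it kept the summed levels close (366.6 to 375.6 FPKM in STZ, 369.2 to 401.1 FPKM in control libraries). Ccna2 relative to the mean of these markers was at -0.72 ± 0.19 in STZ and -0.63 ± 0.07 in control libraries, with overlap. In whole testis, fewer cells of a type and less RNA per cell cannot be told apart, and the part of cell composition in these differences was not tested.

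Among the B-type cyclins, which with Cdk1 drive cells through division, the abundant Ccnb2 was lower in STZ and the scarce Ccnb3 higher. Ccnb2 (chr9:70407692-70421547, minus strand) had 89.8, 96.1 and 84.2 FPKM in STZ libraries, against 104.1, 99.5 and 102.9 FPKM in control libraries, without overlap. The means were 90.0 ± 5.94 FPKM in STZ libraries and 102.2 ± 2.40 FPKM in control libraries, and the gene fell by 0.18 (SE 0.05, limma adjusted p = 0.00404). The call was lost when only the STZ and control libraries entered the fit, and the value was -0.14 after quantile normalization and -0.52 after median centring. Relative to the late spermatocyte markers Ccnb2 did not separate the groups, at -1.17 ± 0.12 in STZ and -1.21 ± 0.05 in control libraries.

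Ccnb3 (chrX:6979652-7041619, minus strand), a cyclin known in mice from early meiotic prophase and from the first meiotic division of oocytes, had 1.92, 1.30 and 1.96 FPKM in STZ libraries, against 0.81, 1.08 and 1.10 FPKM in control libraries. The other 12 libraries ranged from 0.70 to 1.25 FPKM, below all STZ libraries. It rose by 0.44 (SE 0.11, limma adjusted p = 0.0033), or by 0.73 with a pseudocount of 0.1, and it was 0.13 after quantile normalization and 0.10 after median centring, not called on either scale. Of 10 early meiotic markers 2 rose, Dmc1 and Prdm9, and 0 fell. Relative to the mean of those markers Ccnb3 was higher in all 3 STZ libraries, at -4.24 ± 0.37 in STZ and -4.90 ± 0.19 in control libraries.

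Ccnb1 (chr13:100778650-100786570, minus strand), the B-type cyclin that mitosis cannot do without, differed little on the deposited scale. It had 30.4, 27.9 and 29.6 FPKM in STZ libraries, against 29.5, 29.4 and 27.8 FPKM in control libraries. The fold change was 0.02 on the log2 scale, with a 95% interval of -0.12 to 0.15 (limma adjusted p = 0.827), and all 18 libraries lay between 27.4 and 33.2 FPKM. After median centring it was -0.32 and called lower (adjusted p = 0.0024).

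The D-type cyclins, which pair with Cdk4 or Cdk6, were all called higher in STZ on the deposited scale. Ccnd2 (chr6:127125162-127152193, minus strand), known for its part in spermatogonial differentiation, had 1.52, 3.31 and 2.41 FPKM in STZ libraries, against 0.78, 0.81 and 1.59 FPKM in control libraries. STZ replicate 1 fell below control replicate 3, so the groups overlapped. The mean was 2.41 ± 0.90 FPKM in STZ libraries and 1.06 ± 0.46 FPKM in control libraries, and Ccnd2 rose by 0.72 (SE 0.17, limma adjusted p = 0.00275). With a pseudocount of 0.1 the rise was 1.12. It was 0.35 and not called after quantile normalization, 0.37 and called after median centring, and 0.92 without STZ replicate 1.

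Ccnd1 (chr7:144929931-144939925, minus strand) had 1.24, 2.14 and 2.61 FPKM in STZ libraries, against 1.28, 1.09 and 1.16 FPKM in control libraries, with STZ replicate 1 inside the control range. It rose by 0.43 (SE 0.14, limma adjusted p = 0.0155), or by 0.66 with a pseudocount of 0.1, and the call was lost after quantile normalization (0.07), after median centring (0.09), when STZ replicate 2 (0.39) or STZ replicate 3 (0.29) was left out, and when only the STZ and control libraries entered the fit.

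Ccnd3 (chr17:47505051-47599691, plus strand) was by far the main D-type transcript, with 94.8 ± 1.65% of their summed level in STZ and 96.9 ± 0.76% in control libraries. It had 80.7, 78.6 and 83.4 FPKM in STZ libraries, against 70.2, 74.0 and 66.6 FPKM in control libraries, without overlap. Ccnd3 rose by 0.20 (SE 0.05, limma adjusted p = 0.00561) and by 0.23 after quantile normalization, but the value turned to -0.14, not called, after median centring.

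Sertoli cell markers rose in all 14 cases, with a median log2 fold change of 1.14 and a summed level of 1702 to 2229 FPKM in STZ against 698.4 to 767.4 FPKM in control libraries. Of 10 macrophage markers 8 rose, with sums of 170.6 to 344.3 FPKM in STZ libraries and 69.8 to 70.8 FPKM in control libraries. Of 6 peritubular myoid markers 5 rose, and of 7 endothelial markers 6 rose. Leydig cell markers differed from these lists, with 1 of 8 called higher and a median log2 fold change of 0.13. Among all genes tested, 43.2% were called higher. Of 7 lymphocyte markers, 6 stayed under 1 FPKM in every library, and the highest single value was 1.03 FPKM. Relative to the Sertoli markers Ccnd2 was at -3.31 ± 0.36 in STZ and -3.13 ± 0.54 in control libraries, with overlap, whereas Ccnd1 was lower in all 3 STZ libraries (-3.57 ± 0.28 in STZ, -2.92 ± 0.07 in control libraries). Ccnd3, too, was lower relative to the Sertoli markers in all 3 STZ libraries, at 1.76 ± 0.24 in STZ and 2.86 ± 0.10 in control libraries. The part of these cell types in the D-type values was not tested.

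The E-type cyclins changed least clearly. Ccne1 (chr7:38097984-38107534, minus strand) had 2.86, 4.38 and 3.62 FPKM in STZ libraries, against 3.03, 2.88 and 2.37 FPKM in control libraries, and STZ replicate 1 lay inside the control range. It rose by 0.29 (SE 0.12, limma adjusted p = 0.0488), at the edge of the threshold, and was lower by 0.13 after quantile normalization and by 0.05 after median centring, with neither called. The call was lost in 13 of the 18 fits that each left out 1 library, at 0.17 without STZ replicate 2 and 0.21 without control replicate 3, and also under both other pseudocounts, without the filter, with the replicate block and in the fit of only the STZ and control libraries. Ccne2 (chr4:11191351-11204779, plus strand) is an E-type cyclin found in mouse spermatocytes. It had 11.4, 13.9 and 15.3 FPKM in STZ libraries, against 11.3, 12.3 and 12.7 FPKM in control libraries. Its fold change was 0.14, with a 95% interval of -0.04 to 0.33 (limma adjusted p = 0.17), and it was -0.20 and called lower after median centring (adjusted p = 0.017). Without STZ replicate 1 it was 0.25 and passed the test.

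**Figure D3:**
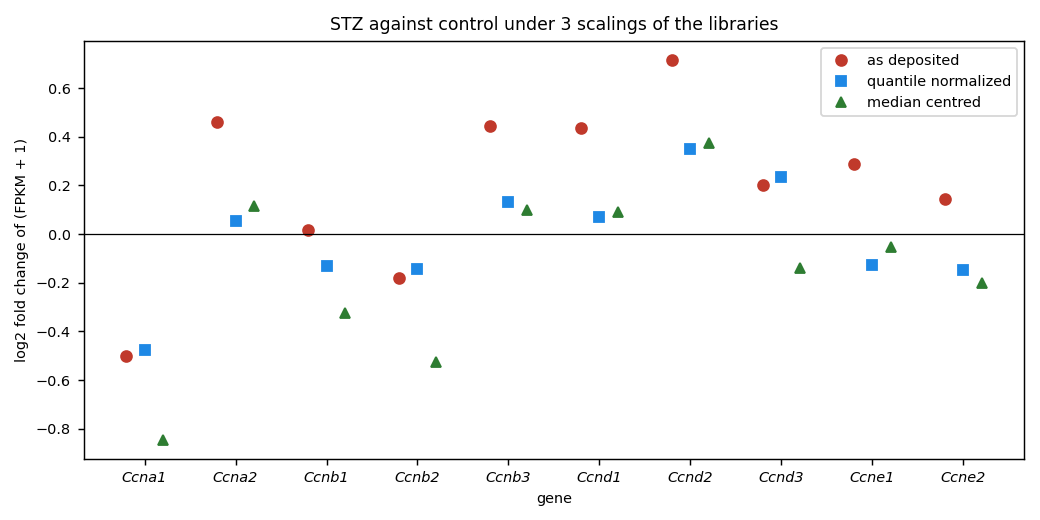
Log2 fold change of FPKM + 1 in STZ against control libraries for each cyclin gene, from the values as deposited (circles), after quantile normalization (squares) and after median centring (triangles). Ccna1, at -0.50, -0.48 and -0.84, and Ccnb2, at -0.18, -0.14 and -0.52, are below 0 on all 3 scales, while the rise of Ccna2, 0.46 as deposited, is 0.05 and 0.12 on the others.

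The kinases, inhibitors and targets around these cyclins moved in part. Of 11 cyclin-dependent kinases and activators tested, 4 rose in STZ and 0 fell, with a median log2 fold change of 0.13. Cdk4, the partner of the D-type cyclins, had 41.0 ± 8.97 FPKM in STZ libraries and 22.1 ± 2.12 FPKM in control libraries and rose by 0.84. Cks1b, a kinase adaptor, rose by 0.62, Cdk2, which binds A- and E-type cyclins, by 0.24, and Cdk7, the kinase that activates others, by 0.28. Among all genes, the shares were 43.2% higher and 12.0% lower.

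Of 10 inhibitors of cyclin-kinase complexes, 6 rose and 0 fell (median 0.22). Cdkn1b, which encodes the inhibitor p27, had 6.94 ± 0.53 FPKM in STZ libraries and 3.08 ± 0.42 FPKM in control libraries and rose by 0.96. Cdkn1a, which encodes p21, rose by 0.60 and Cdkn2a by 0.74. Inca1, known as an inhibitor that binds Ccna1 with Cdk2, rose by 0.27.

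Of 12 genes of cyclin degradation and the spindle checkpoint, 2 rose and 1 fell (median -0.03). Fbxo31 rose by 0.73 and Fbxo5, an inhibitor of the anaphase-promoting complex, by 0.44, while Skp2, the receptor through which p27 is marked for degradation, fell by 0.43. Of 15 RB and E2F pathway genes, 4 rose and 1 fell (median 0.14). E2f3 rose by 0.65, E2f6 by 0.42 and E2f1 by 0.46, and Foxm1, an activator of B-type cyclin genes, fell by 0.26.

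Of 20 replication and mitosis genes, 7 rose and 3 fell (median 0.08). The risers with the smallest p were Mcm2, Mcm5, Mcm3 and Mcm4, subunits of the replicative helicase, with log2 fold changes of 0.84, 0.57, 0.55 and 0.52. Of 18 other cyclin family genes tested, 10 rose and 2 fell (median 0.25), led by Ccnjl, Cables1, Ccng1 and Ccnt2 at 0.81, 0.49, 0.93 and 0.53. The medians of these 6 lists, from -0.03 to 0.25, lie around the 0.17 of all genes.

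The next question was what happened to the cyclins when streptozotocin was combined with AOS or with a transplant. These 3 comparisons share the 3 STZ libraries with each other and with STZ against control, so their values are given side by side. Neither their likeness nor a sign opposite to that in STZ against control is a separate result. Against STZ, Ccna1 rose in each treated group, by 0.52 in STZ+AOS (SE 0.11, limma adjusted p = 8.01e-04), by 0.31 in STZ+AOS-FMT (adjusted p = 0.0225) and by 0.50 in STZ+control-FMT (adjusted p = 0.00139). All 9 treated libraries were above the 3 STZ libraries. The value for STZ+AOS-FMT lost its call without STZ replicate 2 (0.25), without STZ replicate 3 (0.26), without STZ+AOS-FMT replicate 3 (0.25), and when only the STZ+AOS-FMT and STZ libraries entered the fit.

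Ccna2 fell against STZ in each treated group, by 0.44 in STZ+AOS (adjusted p = 0.00304), by 0.56 in STZ+AOS-FMT (adjusted p = 4.8e-04) and by 0.46 in STZ+control-FMT (adjusted p = 0.00249), all from limma. Its libraries stood at 3.53, 3.51 and 3.02 FPKM in STZ+AOS, at 3.39, 2.99 and 2.68 FPKM in STZ+AOS-FMT, and at 3.38, 3.33 and 3.15 FPKM in STZ+control-FMT. After quantile normalization the differences were -0.02, -0.13 and -0.10 in that order, and none was called. The log2 ratio of Ccna1 to Ccna2 was higher than in STZ by 1.06, 0.99 and 1.06 in the 3 groups, each at an exact permutation p of 0.1, the smallest possible.

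In STZ+AOS against STZ, 1 cyclin gene was higher, Ccna1 (11.9% of all genes were), and 4 were lower, Ccna2, Ccnb3, Ccnd1 and Ccnd2 (43.1% of all genes were). Ccnd2 had 1.17, 0.98 and 0.77 FPKM in STZ+AOS libraries and fell by 0.76 (limma adjusted p = 0.00181), a fall that was called after quantile normalization as well, at -0.37. Ccnb3 fell by 0.38 and Ccnd1 by 0.47. With a pseudocount of 0.1 the values were -1.18 for Ccnd2, -0.61 for Ccnb3 and -0.73 for Ccnd1. Without STZ replicate 3 both Ccnb3 and Ccnd1 lost their calls (-0.32 and -0.33), leaving 2 lower genes.

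In STZ+AOS-FMT against STZ, 2 cyclin genes were higher, Ccna1 and Ccnb2 (12.0% of all genes were), and 5 were lower (44.5% of all genes were). The lower genes were Ccna2, Ccnb3 (-0.55), Ccnd2 (-0.84), Ccne1 (-0.30) and Ccne2 (-0.27). Ccnb2 had 98.1, 95.8 and 101.3 FPKM in STZ+AOS-FMT libraries, overlapping the STZ libraries, and rose by 0.13 (limma adjusted p = 0.0284). Ccnd2 had 0.89, 0.99 and 0.71 FPKM, all below the STZ libraries. With a pseudocount of 0.1, Ccnb3 was at -0.93 and Ccnd2 at -1.33. Single libraries decided several of these calls: Ccnb2 was not called without STZ replicate 3 (0.08), STZ+AOS-FMT replicate 1 (0.13) or STZ+AOS-FMT replicate 3 (0.11). The number of higher genes was 0 without STZ replicate 3 or STZ+AOS-FMT replicate 3, and 1 without STZ replicate 2 or STZ+AOS-FMT replicate 1. The lower genes numbered 3 without STZ replicate 3, where Ccne1 (-0.30) and Ccne2 (-0.19) were lost, and Ccne1 was lost without STZ replicate 2 (-0.19), STZ+AOS-FMT replicate 1 (-0.32) or replicate 2 (-0.20) as well.

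In STZ+control-FMT against STZ, 1 cyclin gene was higher, Ccna1 (11.4% of all genes were), and 4 were lower, Ccna2, Ccnb3 (-0.32), Ccnd2 (-0.57) and Ccne1 (-0.32), where 39.9% of all genes were. With a pseudocount of 0.1, Ccnb3 was at -0.50. Ccnd2 had 1.06, 1.56 and 1.15 FPKM in STZ+control-FMT libraries, and replicate 2 overlapped STZ replicate 1. Ccnd1 kept 2.01, 1.44 and 1.96 FPKM, inside the STZ range, with a fold change of -0.07 (95% interval -0.37 to 0.22), which was called without STZ replicate 1 (-0.27). Without STZ+control-FMT replicate 1 only Ccna2 of the lower genes was called, with Ccnb3 at -0.32, Ccnd2 at -0.51 and Ccne1 at -0.28. Without STZ replicate 2, 2 were called and Ccnd2 was at -0.38 and Ccne1 at -0.20, and without STZ replicate 3, 2 were called and Ccnb3 was at -0.25 and Ccne1 at -0.31.

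The split of all genes turns with the scaling here too. Calls higher and lower in STZ+AOS against STZ numbered 4242 and 3108 after quantile normalization and 6319 and 2818 after median centring, and those in STZ+AOS-FMT against STZ 4220 and 3205, then 6350 and 2744. In STZ+control-FMT against STZ they were 3706 and 3049, then 5936 and 2512. All 14 Sertoli markers were lower than in STZ in each of the 3 treated groups, and of 10 late spermatocyte markers 8, 6 and 6 were higher. Among all genes as deposited, 43.1%, 44.5% and 39.9% were lower in that order, and 11.9%, 12.0% and 11.4% were higher. The part of these cell types in the cyclin values was not tested.

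**Figure D4:**
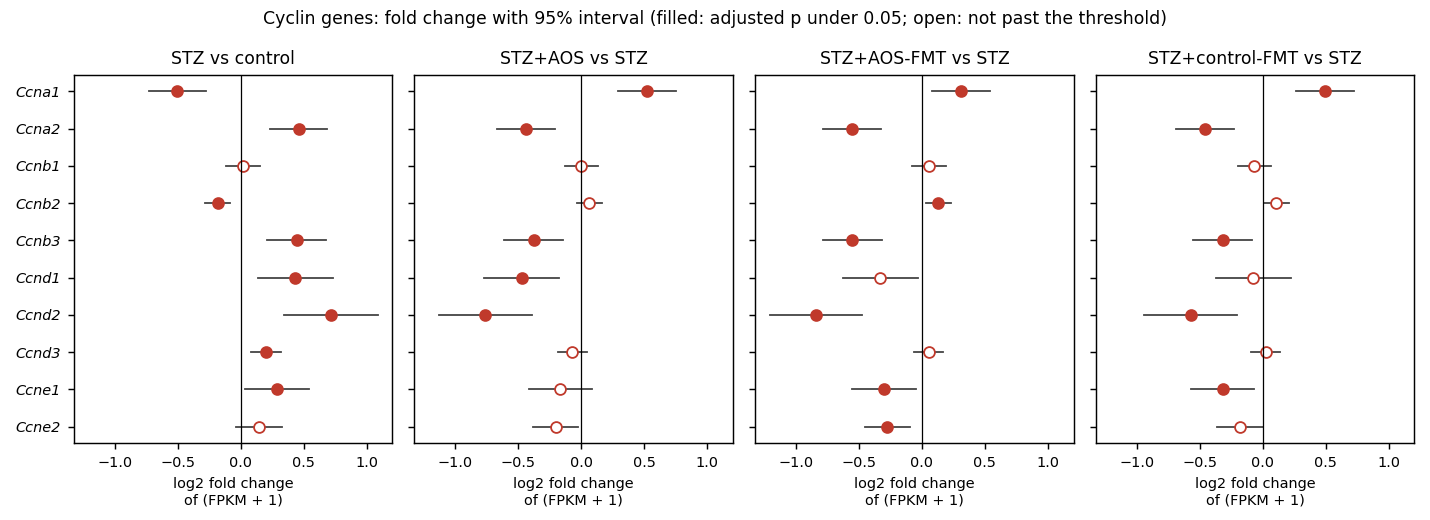
Log2 fold change of FPKM + 1 (horizontal axes) of each cyclin gene, with its 95% interval, in STZ against control and in each treated STZ group against STZ; filled points passed an adjusted p under 0.05. Ccna1 is at -0.50 in STZ against control and at 0.52, 0.31 and 0.50 in the treated groups, while Ccnb1 is between -0.06 and 0.06 in all 4 panels. The 4 panels share the STZ libraries.

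The effect of AOS was set against its effect without streptozotocin by an interaction term. For Ccna1 the AOS effect was 0.52 with STZ and -0.09 without it, a difference of 0.61 (SE 0.15, limma adjusted p = 0.00665), and it was the only cyclin gene called higher, where 6.12% of all genes were. For Ccnd2 the effects were -0.76 and -0.11, a difference of -0.65 (SE 0.25, limma adjusted p = 0.0498), and it was the only cyclin gene called lower, where 29.1% of all genes were. The Ccna1 difference was called under each of the 27 alternatives, while that of Ccnd2 was lost under most, with -0.29 after quantile normalization, -0.35 after median centring and -1.01 with a pseudocount of 0.1. Leaving out STZ replicate 1 brought the number of cyclin genes called lower to 5, and leaving out most other single libraries brought it to 0. Without STZ replicate 2 Ccnd2 was at -0.47 and not called, although the number did not fall to 0 there.

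No cyclin gene was called by limma in AOS against control, where 0 of 14164 genes were called (0%) and 0 cyclin genes had an unadjusted p under 0.05, as 1273 of all genes did (8.99%). Ccna1 had a fold change of -0.09 there, with a 95% interval of -0.32 to 0.14, and Ccna2 likewise -0.09, with an interval of -0.32 to 0.14. In STZ+AOS-FMT against STZ+control-FMT, limma called 0 cyclin genes and 0% of all genes, and 1 cyclin gene, Ccnb3 (-0.24), had an unadjusted p under 0.05, as 866 of all genes did (6.11%). For 3 cyclin genes, Ccna1, Ccnb3 and Ccnd2, all STZ+AOS-FMT libraries lay below all STZ+control-FMT libraries. The share of all genes that did so was not computed, so this count is no result on the cyclins. Ccna1 had a fold change of -0.19 there, with an interval of -0.42 to 0.04.

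The treated STZ groups were also set against control. Limma called 0 cyclin genes in STZ+AOS (0.0424% of all genes were called), 0 in STZ+AOS-FMT (0% of all genes) and 0 in STZ+control-FMT (0% of all genes). At an unadjusted p under 0.05 there were 2, 1 and 2 cyclin genes in that order, beside 7.98%, 6.54% and 6.23% of all genes tested. Ccna1 differed from control by 0.02 in STZ+AOS (95% interval -0.21 to 0.25), by -0.19 in STZ+AOS-FMT (-0.42 to 0.04) and by -0.01 in STZ+control-FMT (-0.23 to 0.22).

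Ccnd3 was higher than in control testis in every library of the treated STZ groups. It had 78.4, 75.8 and 76.7 FPKM in STZ+AOS, 81.1, 86.2 and 84.8 FPKM in STZ+AOS-FMT, and 75.8, 84.8 and 86.9 FPKM in STZ+control-FMT libraries, all above the highest control library at 74.0 FPKM. Fold changes were 0.13, 0.25 and 0.23, with limma adjusted p of 0.561, 0.303 and 0.446, so none was called over all genes. The 3 comparisons share the control libraries, and how many of all genes lay wholly above or below control in them was not computed. Other cyclin genes separated from control as well. Ccnb2 lay wholly below it in STZ+AOS (-0.12) and in STZ+control-FMT (-0.07), and Ccnd1 wholly above it in STZ+control-FMT (0.36), none of them called.

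The genes whose levels followed Ccna1 and Ccna2 most closely over the 18 libraries were found by Pearson correlation of log2(FPKM + 1), given as a description, since libraries of a group share their treatment and the 3 STZ libraries stand apart. For Ccna1 these were Fem1c (r = 0.899), LOC102636989 (0.882), Ppef1 (0.878), Mok (0.877) and Hydin (0.875). Fem1c, a substrate receptor of a ubiquitin ligase, had 105.7 ± 11.3 FPKM in STZ libraries and 135.1 ± 7.03 FPKM in control libraries, and Hydin, a protein of the central apparatus of cilia and flagella, had 14.5 ± 1.04 FPKM in STZ libraries and 17.3 ± 0.41 FPKM in control libraries. For Ccna2 they were Zfp142 (0.962), Rap1a (0.961), Utrn (0.960), Ctbp1 (0.960) and Taz (0.957). Rap1a, a small GTPase, had 15.3 ± 3.90 FPKM in STZ libraries and 8.31 ± 0.20 FPKM in control libraries.

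Some levels may hold reads of other loci. GENCODE M21 annotates processed pseudogenes of Ccnb1, Ccnb2 and Ccnd3 (Ccnb1-ps, Ccnb2-ps, Ccnd3-ps) that have no row in the table, so shared reads may have been split or lost. Exons of Exosc9 overlap Ccna2 on the opposite strand, as do those of LTO1 for Ccnd1, Bysl for Ccnd3, Ints8 for Ccne2, and noncoding antisense genes for Ccna1 and Ccnd2. Strand use in counting is not given in the sources used here, so reads from such pairs cannot be told apart. Exosc9 had 11.8 ± 1.60 FPKM in STZ libraries and 10.0 ± 1.71 FPKM in control libraries, and Bysl had 9.56 ± 1.07 FPKM in STZ libraries and 9.21 ± 1.00 FPKM in control libraries. LTO1 had 8.58 ± 1.40 FPKM in STZ libraries and 6.96 ± 0.45 FPKM in control libraries, and Ints8 had 13.7 ± 1.81 FPKM in STZ libraries and 11.4 ± 0.29 FPKM in control libraries.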

How the data were processed

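The authors deposited 1 table of gene levels for 18 testis libraries, with no unit in its header; the deposited values were taken as FPKM, which cannot be distinguished from RPKM. The submitters' processing notes name Bowtie 0.12.2 and mm10 without a role, and the counting tool is not given in the sources used here. Depth per library is unknown, so no counting interval was computed.

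Values were analysed as log2(FPKM + 1) with limma 3.58.1 (trend) in R 4.3.3, for the 14164 genes with at least 1 FPKM in at least 3 libraries. All 18 libraries entered 1 fit with a mean per group, and a two-sided p under 0.05, adjusted by Benjamini and Hochberg's method over all genes tested, made a call. The pseudocount of 1 understates the fold changes of low genes such as Ccnd2. Ratios within a library used a pseudocount of 0.1 and exact permutation tests (scipy 1.17.1, numpy 2.4.6). The fit was tested on simulated data in which few genes changed and no library was shifted in scale. That test does not bear on the choice of scaling for these libraries.

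The members, gene lists and marker lists were chosen with earlier results of these data known. All 10 cyclin genes were named in each main comparison, along with up to 4 called genes of smallest p per list in STZ against control and the 5 genes most like Ccna1 and Ccna2. Alternatives changed the pseudocount (0.1, 0.5), the filter (none, at least 5), the scaling (quantile, median centring), the trend, the libraries fitted, and a block on replicate number, and left out each library in turn. Gene coordinates came from GENCODE M21 (GRCm38, the build of mm10) and start regions from RefSeq. Start regions were matched for 6 of the 10 genes (not Ccna2, Ccnd1, Ccnd2 and Ccne2), and 3 of them are shown.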

Additional observations from a re-analysis of the deposited data

Results flagged for a closer look

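The effect of AOS on Ccna1 differed with the streptozotocin background. It was 0.52 on the log2 scale of FPKM + 1 with STZ and -0.09 without it, and the difference of 0.61 was tested by the interaction term of the limma fit (adjusted p = 0.00665). Over the alternatives it ranged from 0.50 without STZ+AOS replicate 3 to 0.92 after median centring. In the same test 6.12% of all genes were called higher. Ccna1 was also above the same STZ libraries in STZ+control-FMT, a group whose label names no AOS, by 0.50. Whether the difference is particular to AOS was not tested.

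The effect of AOS on Ccnd2 also differed, by -0.65 (limma adjusted p = 0.0498), with effects of -0.76 with STZ and -0.11 without it. This value sits at the threshold, and its call was lost under most alternatives, among them a pseudocount of 0.1 (-1.01). In the same test 29.1% of all genes were called lower. Ccnd2 was also lower against the same STZ libraries in STZ+control-FMT, at -0.57, and the label of that group names no AOS. Whether the Ccnd2 difference is particular to AOS was not tested.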

How the results depend on the processing

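Depth is unknown, FPKM and RPKM cannot be distinguished, and 5 of the 10 genes lie under 6 FPKM, where the filter of at least 5 FPKM leaves them untested. The scaling of the libraries was the choice that moved most values, and which scaling suits these libraries was not tested. For Ccna1, the call in STZ+AOS-FMT against STZ was the only one of its 5 calls that was lost under an alternative. The log2 ratio of Ccna1 to Ccna2 kept its direction in STZ against control and in the treated STZ groups against STZ, wherever it was recomputed. Median centring cannot change that ratio, and it was not recomputed after quantile normalization. In STZ against control, the log2 fold changes after quantile normalization were -0.48 for Ccna1 and 0.05 for Ccna2. As deposited they were -0.50 and 0.46, so the gap between these genes was narrower after quantile normalization.

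Values that turned their sign were the following, including values called in neither fit. In STZ against control they were Ccnb1 (-0.13 quantile, -0.32 median centring), Ccne1 (-0.13, -0.055) and Ccne2 (-0.15, -0.20) under both scalings and Ccnd3 (-0.14) under median centring. In STZ+AOS against STZ they were Ccne1 (0.25 quantile, 0.18 median centring), Ccne2 (0.089, 0.14) and Ccnd3 (0.28, median centring). In STZ+AOS-FMT against STZ they were Ccnd1 (0.046 quantile, 0.033 median centring), Ccne1 (0.13, 0.063) and Ccne2 (0.028, 0.090). In STZ+control-FMT against STZ they were Ccnb1 (0.083 quantile, 0.25 median centring), Ccnd1 (0.24 on both), Ccne2 (0.090, 0.14), Ccnd3 (-0.0072, quantile) and Ccne1 (0.040, quantile). Leaving out single libraries also turned Ccnb1, which ranged from -0.0090 to 0.052 in STZ against control, from -0.034 to 0.027 in STZ+AOS and from -0.0013 to 0.13 in STZ+AOS-FMT against STZ, and in STZ+control-FMT against STZ Ccnd1 (-0.27 to 0.074) and Ccnd3 (-0.013 to 0.084). The cause was not tested.

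Numbers of cyclin genes called moved by more than 1.5 times in these cases. The filter of at least 5 left Ccna2, Ccnb3, Ccnd1, Ccnd2 and Ccne1 untested, so its smaller numbers reflect genes not tested. In STZ against control, 6 higher became 1 under quantile normalization, median centring and the filter of at least 5, and 2 lower became 4 under median centring and 1 in the fit of only the groups compared. In STZ+AOS against STZ, 1 higher became 2 (quantile) and 4 (median centring), and 4 lower became 1 (quantile, median centring, only the groups compared) and 0 (filter of at least 5). In STZ+AOS-FMT against STZ, 2 higher became 4 (median centring) and 0 (only the groups compared), and 5 lower became 1 (quantile, median centring, filter) and 3 (only the groups compared). In STZ+control-FMT against STZ, 1 higher became 4 (median centring), and 4 lower became 0 (quantile, median centring, filter) and 1 (only the groups compared). In the interaction, 1 higher became 3 (median centring), and 1 lower became 2 without the trend and 0 under both pseudocounts, both filters, both scalings and the fit of only the groups compared. In the F test 7 became 3 (filter), 2 (quantile) and 4 (median centring).

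Leaving out single libraries gave 4 to 7 higher and 2 lower in STZ against control, 1 higher and 2 to 6 lower in STZ+AOS against STZ, 0 to 2 higher and 3 to 6 lower in STZ+AOS-FMT against STZ, 1 to 2 higher and 1 to 5 lower in STZ+control-FMT against STZ, 1 higher and 0 to 5 lower in the interaction, and 4 to 9 in the F test.

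Replicate numbers did not pair the samples: same-number deviations correlated at -0.205 to 0.201, and 2 of 45 pairs were over 0.1. With the replicate block, the interaction count of lower cyclin genes was 0 in place of 1, and 5 cyclin genes were higher and 2 lower in STZ against control; for the ratio of Ccna1 to Ccna2, an exact sign-flip test gave 0.25, the smallest possible with 3 pairs.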
